A study of Bos taurus with 2 samples.

Results

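The trophectoderm is the outer epithelium of the mammalian blastocyst. It seals the embryo with tight junctions, pumps ions to fill the blastocoel, and later gives rise to the embryonic part of the placenta. In cattle it stays a free-floating epithelium for longer than in mouse or human, and it is the source of interferon tau, the signal by which ruminants recognise pregnancy. GATA2 and GATA3 are zinc finger transcription factors of this lineage, whereas HNF4A and PDGFRA mark the hypoblast, the inner layer that lines the yolk sac, and NANOG and PRDM14 mark the epiblast, from which the fetus forms.

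Trophectoderm nuclei were picked from a single-nucleus RNA sequencing library of day 8 bovine (Bos taurus) blastocysts by their counts of GATA2 and GATA3. Barcodes with at least 4000 UMIs (unique molecular identifiers, each standing for 1 captured RNA molecule), a minimum of 500 genes with a UMI, and less than 10% of their UMIs in the 13 mitochondrial genes were kept, and a nucleus was gated when its GATA2 and GATA3 UMIs together numbered at least 2 and exceeded those of HNF4A and PDGFRA. The gate held 220 of the 693 barcodes past the filters, or 31.7% (exact 95% binomial interval 28.3% to 35.4%), of 944 barcodes in the library and 2901 in the series. The other 473 nuclei were described in 3 groups: 102 on the epiblast side (at least 2 NANOG and PRDM14 UMIs), 317 on the hypoblast side (at least 2 HNF4A and PDGFRA UMIs, more than GATA2 and GATA3) and a remainder of 54.

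The blastocysts are labelled wild type and were frozen before nuclei were extracted. The number of embryos behind the library and the way the embryos were produced are not given in the sources used here. The second library of the series came from frozen wild-type blastoids, blastocyst-like structures assembled in microwells from 8 expanded potential stem cells (bEPSC), 8 extraembryonic endoderm cells (bXEN) and 16 trophoblast stem cells (bTSC), and 156 of its 288 barcodes past the same filters met the same gate (54.2%, 48.2% to 60.03%). The blastoid library held 1957 barcodes, of which 1669 were under the UMI minimum, against 251 of 944 in the blastocyst library. Gated nuclei were also deeper in the blastoid library, with a median of 15377.5 UMIs against 9026. The part of depth in the gated shares was not tested. Each group had 1 library, so no difference given here has a replicate check: intervals cover counting error only, and no p-value is given.

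The gated nuclei held 2311642 UMIs, with a median of 9026 UMIs per nucleus (4047 to 80592) and 3682.5 genes. The other blastocyst nuclei held 4323587 UMIs with a median of 8424, and medians of mitochondrial UMIs were 0.341% and 0.436%. Of the barcodes in the 2 libraries, 1 sequence occurred in both, and it was not a gated nucleus. A single gated barcode stood apart. It held 80592 UMIs against 33864 in the next, 7.30% of its UMIs came from ribosomal protein genes (3.61% at most in the other 219), and it supplied 3.49% of all gated UMIs but 28.05% of those of KRT8, 30.4% of KRT18 and 40% of KRT19. It was the only gated nucleus over 5% ribosomal protein UMIs. Named ratios that leaving it out moved by more than 1.3 times are given with and without it.

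The values that chose the nuclei are given as a description. GATA2 was at 479 CPM (UMIs of the gene per 1000000 UMIs of the summed nuclei) in gated and 9.95 CPM in other nuclei, and GATA3 at 234 CPM and 27.1 CPM. Gated nuclei had 2 to 24 GATA2 and GATA3 UMIs with a median of 6. Both genes were seen in 163 nuclei, GATA2 without GATA3 in 44 and GATA3 without GATA2 in 13. No HNF4A or PDGFRA UMI was seen in 191, 1 in 25, and 2 or more in 4. Among the other nuclei 370 had no GATA2 or GATA3 UMI, 69 had 1, and 34 had 2 or more. The epiblast side and the hypoblast side overlapped in these counts, since most epiblast-side nuclei also held HNF4A or PDGFRA UMIs in the plot of gate counts. Marker lists, summed without HNF4A and PDGFRA, did not set the epiblast side apart either. Hypoblast markers took 0.687% of UMIs in its median nucleus and 0.802% on the hypoblast side. Epiblast markers took 0.238% and 0.189%, with NANOG and PRDM14, which chose the epiblast side, still in the sum. The name thus stands for the rule and not for a cell type.

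**Figure D1:**
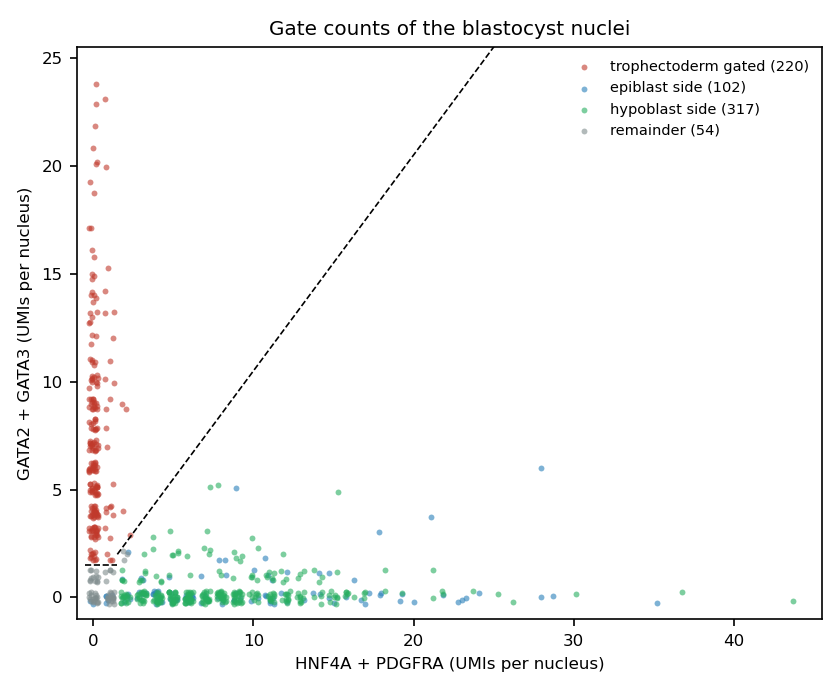
GATA2 and GATA3 UMIs (y axis) against HNF4A and PDGFRA UMIs (x axis) in each of the 693 blastocyst nuclei, 1 point per nucleus with a small horizontal and vertical jitter; the dashed line is the gate. The 220 gated nuclei (red) lie along the y axis and reach 24 UMIs, and 34 of the other nuclei have at least 2 GATA2 and GATA3 UMIs.

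Nuclei just inside and just outside the gate are given by genes the gate does not read. The 14 gated nuclei with 2 GATA2 and GATA3 UMIs had GRHL1 at 277 CPM (exact Poisson 95% interval 185 to 397), GRHL2 at 315 CPM, the microvillus protein gene PLS1 at 954 CPM, SLC34A2 at 344 CPM (241 to 476), HSD3B1 at 124 CPM (66.1 to 212) and DSC2 at 162 CPM (94.5 to 260). The 12 nuclei left outside with 1 such UMI and no HNF4A or PDGFRA UMI had GRHL1 at 306 CPM (205 to 439), GRHL2 at 264 CPM, PLS1 at 918 CPM, SLC34A2 at 232 CPM (145 to 351), HSD3B1 at 243 CPM (154 to 364) and DSC2 at 73.8 CPM (29.7 to 152). These intervals overlap, and the sets are small. The 34 outside nuclei with 2 or more GATA2 and GATA3 UMIs had GRHL1 at 86.8 CPM, PLS1 at 121 CPM and the basement membrane gene NID1 at 342 CPM, against 8.42 CPM of NID1 in the 181 gated nuclei with 4 or more. In the remainder, 34 of 54 nuclei had no GATA2 or GATA3 UMI and 17 had 1.

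Over all genes, 11020 had at least 50 UMIs in the gated and other nuclei together. Of these, 1201 (10.9%) were at least 2-fold higher in CPM in the gated nuclei and 1735 (15.7%) at least 2-fold lower. The median log2 ratio of all 11020 genes was -0.20, so that list medians below stand 0.20 higher when set against it. Divided by that median ratio, 1474 genes were higher and 1371 lower, and the share of higher genes among those past the fold moved from 40.9% to 51.8%. Against the epiblast side 1247 of 8680 genes (14.4%) were higher and 1165 (13.4%) lower. Against the hypoblast side 1198 of 10133 (11.8%) were higher and 1488 (14.7%) lower. The gated nuclei were chosen from these same counts, so all values against other blastocyst nuclei are descriptions of the gated set. A gene can also reach the minimum of 50 UMIs through a single group, where it is high. This limit holds for every list count below.

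The label was checked against a list of trophectoderm markers. Without GATA2 and GATA3, 21 of its genes were measured well enough, of which 11 were at least 2-fold higher in gated nuclei, 1 lower and 9 between, with a median log2 ratio of 1.66. Some genes, such as TFAP2A and CDX2, reached the minimum through the gated nuclei, where they were high, so these counts describe the list and are no support for the label. Summed without GATA2 and GATA3, the list took 0.452% of the UMIs in the median gated nucleus (0.0964% to 1.85%), against 0.217% in the median other nucleus, and 19 of 473 other nuclei lay above the gated median, 11 of them in the remainder. The gated minimum was exceeded by 458 of the 473. Hypoblast markers, summed without HNF4A and PDGFRA, took more than this in the median nucleus, 0.559% in gated and 0.754% in other nuclei, and the trophectoderm share was above the hypoblast share in 73 of 220 gated and 25 of 473 other nuclei. LRP2 and DAB2, both higher in gated nuclei and described below, make up much of that share. Without these 2 genes, left out after their values were seen, the hypoblast share was 0.165% in the median gated and 0.725% in the median other nucleus, and the trophectoderm share was above it in 206 of 220 gated and 38 of 473 other nuclei. Some of the trophectoderm markers that did not separate the gated nuclei are given below.

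GRHL1 and GRHL2 code for grainyhead factors, which drive epithelial junction genes. GRHL1 ranged from 0 to 16.7 UMIs per 10000 UMIs of a gated nucleus with a median of 4.09, and its median was 0 in epiblast-side and hypoblast-side nuclei and 0.368 in the remainder. The gated median lay above nearly all other nuclei, since 9 of 473 exceeded it. The ranges still overlapped, since only 90.5% of gated nuclei had a GRHL1 UMI and the rest were at 0. Summed, GRHL1 was at 415 CPM (389 to 442) in gated and 42.8 CPM (36.8 to 49.4) in other nuclei, a ratio of 9.71 (exact conditional interval 8.28 to 11.4). GRHL2 ranged from 0 to 12.6 UMIs per 10000 with a median of 1.70, and 18 other nuclei exceeded that median. Its summed ratio was 12.0 (9.49 to 15.3).

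TFAP2A, TFAP2C and CDX2 are factors with a known part in setting up trophectoderm. TFAP2A had 66 UMIs in gated and 4 in other nuclei, a ratio of 30.9 (11.5 to 117), and CDX2 had 58 against 6, a ratio of 18.1 (7.82 to 51.3). Both were sparse: after each nucleus was thinned to 4000 UMIs, a TFAP2A UMI was seen in 10.9% of gated and 0.315% of hypoblast-side nuclei, and a CDX2 UMI in 5.91% and 0.946%. Unthinned, the CDX2 shares were 19.1% and 1.26%, at median depths of 9026 and 8172 UMIs. TFAP2C, although among the 4 marker genes given for these nuclei, did not separate them. It ranged from 0 to 4.42 UMIs per 10000 with a median of 0.737, and 130 other nuclei exceeded that median. Its ratio was 1.70 (1.40 to 2.08), at 84.4 CPM against 49.5 CPM, with 61.9 CPM on the epiblast side and 42.6 CPM on the hypoblast side.

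The TEAD factors, which bind YAP1 and read out the Hippo pathway, differed among themselves. TEAD3 was at 73.1 CPM against 14.8 CPM, a ratio of 4.94 (3.68 to 6.69). TEAD4, the member required for trophectoderm in mouse, had a ratio of 1.34 (1.13 to 1.60) and TEAD1 one of 1.04 (0.98 to 1.11). Among factors of the ETS family, ELF3 was 9.84-fold (5.99 to 17.0) and ELF1 4.98-fold (4.14 to 6.02) higher. ELF5, a trophoblast stem cell factor in mouse, had 4 UMIs in gated and 9 in other nuclei, EOMES had 0 and 3, and HAND1 had 0 in both. A count of 0 among 220 nuclei allows a share of nuclei with an EOMES UMI of up to 1.36%, and sets no limit on nuclei that express it at a level missed at this depth. KLF5 was at 522 CPM in gated and 697 CPM in other nuclei, a ratio of 0.75 (0.70 to 0.80). GCM1, a factor of syncytiotrophoblast in mouse and human, was the only list gene at least 2-fold lower, with 3 UMIs against 83, which is 14.8-fold lower (4.89 to 73.2). It was at 26.9 CPM on the epiblast side and 16.1 CPM on the hypoblast side.

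Keratins 8 and 18 form the first intermediate filaments of the embryo and pair in simple epithelium. KRT8 ranged from 0 to 48.3 UMIs per 10000 in gated nuclei with a median of 4.08, and the highest gated value was that of the deepest barcode. All but 10 of the 473 other nuclei lay below the gated median. KRT8 was at 600.0 CPM against 64.8 CPM, a ratio of 9.26 (8.14 to 10.6), and at 6.91 without the deepest barcode. KRT18 had a ratio of 7.08 (6.51 to 7.71), or 5.11 without it, and KRT19 one of 8.32 (6.69 to 10.4), or 5.17 without it. The highest KRT18 value of any blastocyst nucleus, 170 UMIs per 10000, lay in the remainder, outside the gate. Keratins form a multigene family, so their counts are uncertain where reads could be split between near-identical copies.

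**Figure D2:**
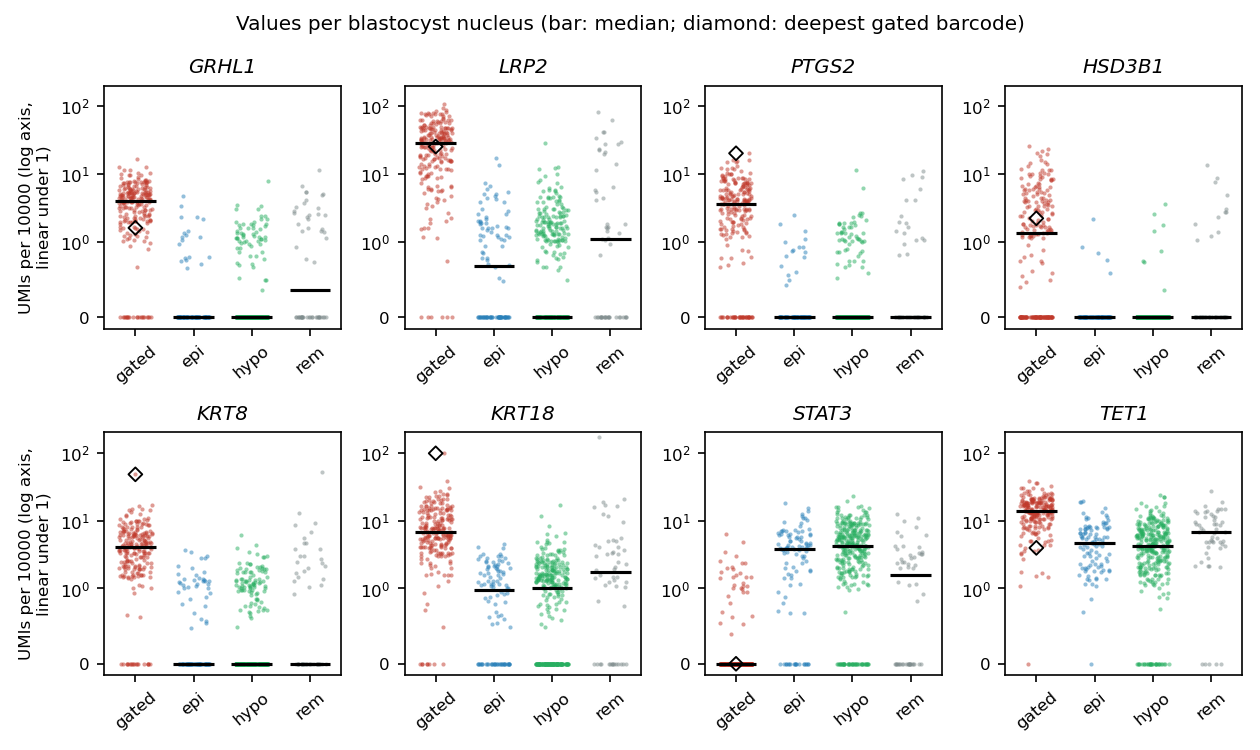
UMIs per 10000 UMIs (y axis, log scale, linear under 1) of 8 genes in each blastocyst nucleus of the gated (220), epiblast-side (102), hypoblast-side (317) and remainder (54) groups; bars are medians and the open diamond is the deepest gated barcode. GRHL1, LRP2, PTGS2, HSD3B1, KRT8 and KRT18 are high in gated nuclei, STAT3 is low, TET1 is higher but overlaps, and the deepest barcode is the highest gated nucleus in KRT8, KRT18 and PTGS2.

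By the rule of size, the 15 genes highest in gated nuclei were led by GIPC2 with 220 UMIs against 6, a ratio of 68.6 (31.0 to 189). GIPC2 codes for a PDZ domain adaptor of endocytic vesicles. A GIPC2 UMI was seen in 88 gated nuclei. SLC34A2, a sodium-phosphate cotransporter of apical membranes, was the most abundant of the 15 by UMIs. It ranged from 0 to 23.6 UMIs per 10000 with a median of 4.52, the median was 0 in each other group, and 9 other nuclei exceeded the gated median. Its CPM was 500 (471 to 529) in gated nuclei, 16.2 on the epiblast side, 11.1 on the hypoblast side and 79.8 in the remainder, a ratio of 26.3 (21.0 to 33.4) against all others.

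The other genes of the 15 fell into several known roles. HKDC1, a hexokinase, had a ratio of 26.0 (15.9 to 45.3), INPP5D, a phosphatase of inositol lipids, one of 21.3 (14.5 to 32.6), and MGLL, monoglyceride lipase, one of 20.2 (12.1 to 36.2). DSC2, a desmosomal cadherin, stood at 24.3 (17.3 to 35.1), with 467 UMIs in 149 gated nuclei and 36 UMIs outside the gate. HSD3B1, the enzyme that makes progesterone from pregnenolone, stood at 23.8 (18.1 to 31.7). MACC1, LOXL3, a lysyl oxidase, CARNS1, which makes carnosine, and NGEF, a guanine nucleotide exchange factor, had ratios of 25.1, 20.6, 21.2 and 24.0. DOK1, an adaptor of tyrosine kinases, C23H6orf132, CRYBG2 and SUSD1 had ratios of 26.9, 26.2, 25.2 and 21.8. All 15 were also higher in the remainder than on the epiblast side and the hypoblast side, between 7.26 CPM for GIPC2, DOK1 and MGLL and 94.4 CPM for HSD3B1.

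Of the 10 genes lowest in gated nuclei 9 are given here, and they included matrix, adhesion and signalling genes. TMEM132D had 197 UMIs in gated and 13155 in other nuclei and was 35.7-fold lower (31.0 to 41.3). It ranged from 0 to 33.6 UMIs per 10000 with a gated median of 0, against a median of 24.8 in other nuclei, of which 437 were above 0. NID1, a basement membrane linker, was 39.3-fold lower (26.7 to 60.3), at 11.2 CPM against 447 CPM on the epiblast side and 483 CPM on the hypoblast side. CDH2, N-cadherin, had 8 UMIs against 541 and was 36.2-fold lower (18.2 to 84.2). A2M, a protease inhibitor, and DAB1, an adaptor of reelin signalling, were 32.9-fold and 39.8-fold lower. IGSF11 was 45.7-fold (17.7 to 169), PARP8 34.5-fold, SGIP1 33.0-fold and SLCO5A1 32.1-fold lower. Each of the 9 was at a lower CPM in gated nuclei than in each of the other 3 groups.

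**Figure D3:**
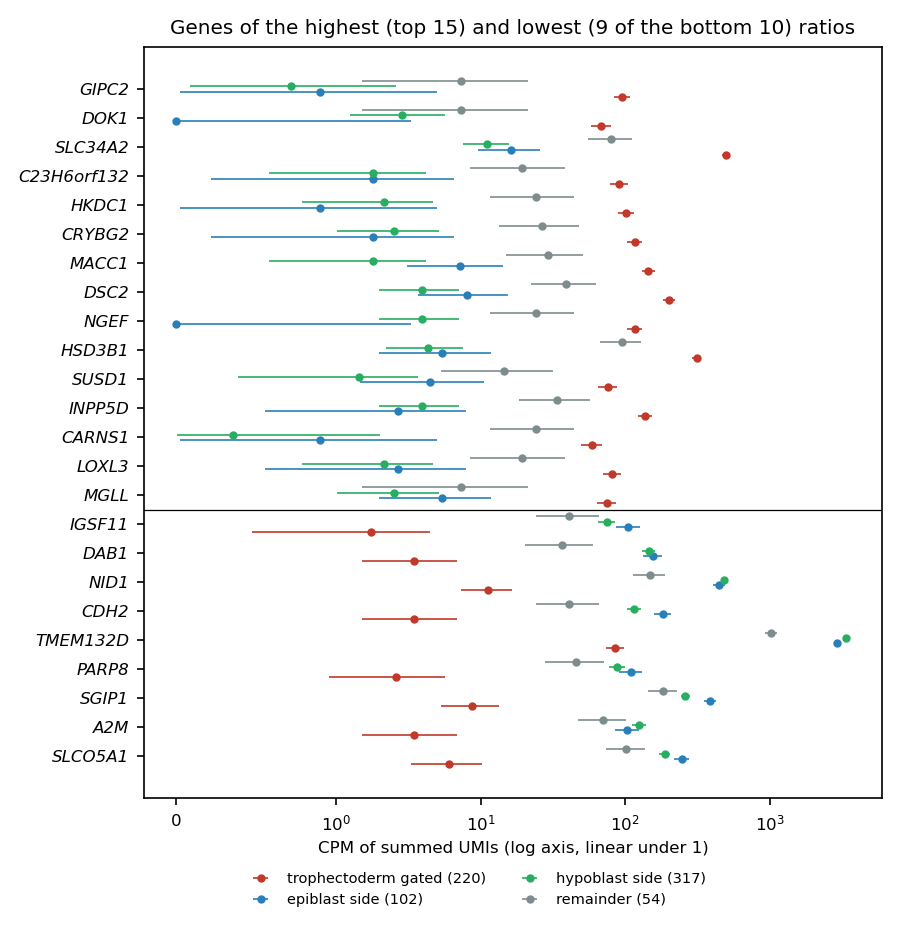
CPM of summed UMIs (x axis, log scale, linear under 1) with exact Poisson 95% intervals for the 15 highest and 9 of the 10 lowest genes in gated (red), epiblast-side (blue), hypoblast-side (green) and remainder (grey) nuclei. The remainder lies between the gated nuclei and the 2 other groups for the 15 highest genes, and the gated nuclei lie lowest for these 9 genes.

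Endocytic receptors of maternal nutrients form a group known from the yolk sac endoderm as well as from outer epithelia of the embryo. LRP2, or megalin, takes up lipoproteins and vitamin carriers. It ranged from 0 to 110 UMIs per 10000 in gated nuclei with a median of 28.8, and its median was 0.682 on the epiblast side, 0 on the hypoblast side and 1.11 in the remainder. The 6 other nuclei above the gated median all lay in the remainder. LRP2 was at 3053 CPM (2982 to 3125) against 229 CPM, a ratio of 13.3 (12.5 to 14.3). DAB2, the clathrin adaptor that binds the tail of megalin, was at 822 CPM against 63.1 CPM, a ratio of 13.0 (11.5 to 14.8). CUBN and AMN, which form the partner receptor of megalin, were sparse, with 8 UMIs against 28 and 6 against 60.

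LRP2 and DAB2, with the laminin gene LAMA1 at a ratio of 6.93 (5.28 to 9.20), were the 3 genes of the hypoblast list that were at least 2-fold higher in gated nuclei. Of the 22 measured genes of that list 13 were at least 2-fold lower, with a median log2 ratio of -2.33. FN1, fibronectin, ranged from 0 to 73.2 UMIs per 10000 in gated nuclei with a median of 2.90, against medians of 29.8 on the epiblast side and 36.6 on the hypoblast side. It was 7.92-fold lower (7.44 to 8.44). COL4A1 was 8.38-fold lower (6.90 to 10.3). SOX17, under the minimum of 50 UMIs and so not among the 22, had 0 UMIs against 40. GATA6, in contrast, was abundant in the gated nuclei. It ranged from 0 to 22.7 UMIs per 10000 with a median of 4.67, against 8.27 on the epiblast side and 8.49 on the hypoblast side. It was at 554 CPM (524 to 585) against 900.4 CPM, 1.62-fold lower (1.53 to 1.73). Unthinned, 95.9% of gated nuclei had a GATA6 UMI.

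Genes of the epiblast list were lower in 8 of 16 measured cases and higher in 1, with a median log2 ratio of -1.04. Summed with NANOG and PRDM14, the list took 0.228% of UMIs in the median gated nucleus, against 0.198% in the median other nucleus. It took 0.238% on the epiblast side. TET1, described below, makes up much of the gated share, and the sum without it was not computed. NANOG had 4 UMIs in gated and 161 in other nuclei and PRDM14 5 and 240, and those 2 genes also chose the epiblast side. SOX2 was 8.93-fold lower (4.74 to 18.96), the maternal-effect gene DPPA3 2.88-fold lower (2.23 to 3.77), and the ETS factor gene SPIC 4.97-fold lower (4.11 to 6.06). The higher gene was TET1, which oxidises methylated cytosine. TET1 ranged from 0 to 39.1 UMIs per 10000 in gated nuclei with a median of 14.1, against medians of 4.75 on the epiblast side and 4.19 on the hypoblast side, and 20 of 473 other nuclei exceeded the gated median. It was at 1443 CPM (1395 to 1493) against 558 CPM, a ratio of 2.58 (2.45 to 2.72). DNMT3A, which adds DNA methylation, was also high, at 593 CPM against 135 CPM, a ratio of 4.38 (3.97 to 4.83). DNMT3B had a ratio of 1.54 (1.35 to 1.76). Of 13 DNA methylation genes 4 were at least 2-fold higher (with GADD45A and GADD45B) and 0 lower, with a median of 0.27.

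Products of the ruminant trophoblast were next. Of 7 measured genes 6 were at least 2-fold higher and 0 lower, with a median log2 ratio of 3.26. Prostaglandin and steroid enzymes led. PTGS2, which makes the precursor of all prostaglandins, ranged from 0 to 20.3 UMIs per 10000 with a median of 3.63, the median was 0 in every other group, and 9 other nuclei exceeded it. PTGS2 was at 482 CPM (454 to 511) against 35.8 CPM, a ratio of 13.4 (11.4 to 16.0). PTGES, the next enzyme toward prostaglandin E, had a ratio of 9.61 (6.05 to 15.9). CYP11A1, which makes pregnenolone from cholesterol, had 70 UMIs against 9, a ratio of 14.5 (7.24 to 33.1).

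HSD3B1, the following step, was uneven among the gated nuclei. It ranged from 0 to 25.8 UMIs per 10000 with a median of 1.36, 134 gated nuclei had a UMI, and 15 other nuclei exceeded that median. It was at 313 CPM (291 to 337) in gated nuclei and at 94.4 CPM in the remainder. Of the secreted products, IFNT3 had 49 UMIs against 30, a ratio of 3.05 (1.90 to 4.98), at 21.2 CPM, and PAG1, a pregnancy-associated glycoprotein, a ratio of 4.17 (3.12 to 5.63). SSLP1 had 38 against 85, a ratio of 0.84 (0.55 to 1.24), and CGA, TKDP4 and CSH2 had 0 UMIs in gated and other nuclei. The interferon tau, glycoprotein and Kunitz domain genes belong to families of near-identical copies, so these counts are uncertain, and IFNT, IFNT2, PAG2 and other members without a matching symbol were not analysed here.

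Some of the steroid genes also stand in the list of cumulus and granulosa cells, which surround the oocyte. Of its 12 genes 4 were measured and 3 were at least 2-fold higher in gated nuclei, namely HSD3B1, CYP11A1 and CYP19A1, all made by trophoblast too. The list took 0 to 0.258% of UMIs in gated nuclei with a median of 0.0360%, and 0 to 0.189% in other nuclei with a median of 0, and it was at 0 in 37 of 220 gated and 266 of 473 other nuclei. The part of these cells in the steroid values was not tested. Of the markers that define those cells, FSHR had 283 UMIs against 322, a ratio of 1.64 (1.40 to 1.93), and PTX3 27 UMIs against 6. FOXL2 and INHA were at 0 in gated and other nuclei, and HAS2 and TNFAIP6 were at 0 in gated nuclei. Of the fibroblast list 1 of 11 genes was measured, COL1A2 with 55 UMIs against 8, while COL3A1, DCN and POSTN were at 0 in gated nuclei. The list took at most 0.0273% of UMIs in a gated nucleus and 0.128% in another nucleus. Of the endothelial list 3 of 9 genes were measured, 1 higher and 2 between. PECAM1 had a ratio of 3.27 (2.59 to 4.15), CDH5 one of 0.91 (0.50 to 1.62) and FLT1 one of 0.61 (0.40 to 0.90), or 0.498 and so past the fold without the deepest barcode. Of the others ESAM had 7 UMIs against 24, ERG 6 against 8 and TEK 5 against 7, and KDR and CLDN5 were at 0 in gated nuclei. The list took 0 to 0.0779% of UMIs in gated nuclei with a median of 0.00828%, against 0 to 0.133% with a median of 0, and it was at 0 in 93 of 220 gated and 310 of 473 other nuclei. Of the blood and immune list 1 of 10 genes, CD68, was measured, with a ratio of 0.82, C1QA, C1QB and MS4A1 were at 0 in gated nuclei, and the list took at most 0.0379% of UMIs in gated and 0.0442% in other nuclei.

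Junction and polarity genes make the trophectoderm a sealed epithelium. Of 21 measured polarity and tight junction genes 10 were at least 2-fold higher in gated nuclei and 3 lower, with a median log2 ratio of 0.98. EZR, which links the apical membrane to actin, ranged from 0 to 31.4 UMIs per 10000 with a median of 11.7, against 0.949 on the epiblast side and 1.33 on the hypoblast side. All but 11 of the other nuclei lay below the gated median. EZR was at 1217 CPM (1172 to 1263) against 207 CPM, a ratio of 5.87 (5.44 to 6.33). The Crumbs complex scaffolds PATJ and PALS1 had ratios of 4.31 (3.97 to 4.68) and 3.997 (3.52 to 4.55).

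Among claudins, the strands of the tight junction, CLDN23 had a ratio of 17.5 (10.2 to 32.0) and CLDN4 one of 4.19 (3.30 to 5.36), or 2.91 without the deepest barcode. CLDN3 had 48 UMIs against 10, a ratio of 8.98, or 6.40 without it, and CLDN6 had a ratio of 2.17 that was 1.34 without the deepest barcode. Without it 8 of 20 genes of this list were higher and 3 lower. The lower genes went against the rest of the list. PRKCI, the atypical protein kinase C of the apical complex, was 3.04-fold lower (2.64 to 3.50), at 103 CPM against 313 CPM, and the junction adhesion molecule F11R 2.82-fold lower (2.51 to 3.18). CLDN10 was 3.63-fold lower (2.06 to 6.89). OCLN, occludin, had a ratio of 0.73 (0.65 to 0.82).

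Desmosomes, the spot welds of epithelium, led the adhesion list. Of 19 measured genes 7 were at least 2-fold higher, namely DSC2, PKP1, DSP, JUP, PKP2, DSG3 and CTNNB1, and 1, CDH2, was lower, with a median of 0.40. The 7 include 6 desmosome components. Others of these gene families, DSG2 and PKP4, did not pass the fold, at ratios of 1.46 and 1.15 without the deepest barcode. DSP, the desmosomal plaque protein, ranged from 0 to 10.99 UMIs per 10000 with a median of 2.11, against 0 in each of the other groups, and 16 other nuclei exceeded it. DSP had a ratio of 9.12 (7.55 to 11.1), the plakophilins PKP1 and PKP2 15.0 (7.46 to 34.0) and 4.61 (4.07 to 5.22), and JUP, plakoglobin, 5.70 (4.46 to 7.34). E-cadherin, CDH1, did not separate the groups. It had medians of 6.45 UMIs per 10000 in gated and 5.13 in other nuclei and a ratio of 1.18 (1.10 to 1.25).

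Ion and water transport fills the blastocoel. Of 14 measured genes 4 were at least 2-fold higher and 6 lower, and the median log2 ratio of 0.07 was -0.30 without the deepest barcode. The sodium pump subunit ATP1B3 had a ratio of 2.29 (2.16 to 2.44), at 1013 CPM. SLC9A3, an apical sodium-proton exchanger, had 60 UMIs against 3, a ratio of 37.4 (12.2 to 186). FXYD4, a pump regulator, had a ratio of 7.05 (5.25 to 9.62), or 5.61 without the deepest barcode, and SLC26A4, an anion exchanger, one of 4.90 (3.67 to 6.61). On the lower side, the sodium channel SCNN1A was 4.01-fold (2.88 to 5.73), the chloride channel CFTR 5.61-fold (2.44 to 15.9) and the cotransporter SLC12A2 2.50-fold (1.88 to 3.36) lower. The water channel AQP3 had a ratio of 1.39 (1.05 to 1.83), which turned to 0.81 without the deepest barcode.

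The Hippo pathway places YAP1 in outer nuclei of the early embryo. Of 22 measured genes 6 were at least 2-fold higher and 2 lower, with a median of 0.31. AMOT, the junction protein that holds YAP1 in the cytoplasm, had 234 UMIs against 28, a ratio of 15.6 (10.5 to 24.0). WWC1, or KIBRA, was at 675 CPM against 100.1 CPM, a ratio of 6.74 (6.05 to 7.51), and the YAP1 target CCN1 had a ratio of 8.21 (5.18 to 13.5). YAP1 itself was at 435 CPM against 382 CPM, a ratio of 1.14 (1.05 to 1.23).

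Genes of cholesterol synthesis were all on the higher side. Of 21 measured genes 14 were at least 2-fold higher and 0 lower, all 21 had a ratio over 1, and the median log2 ratio was 1.11. Without the deepest barcode 11 of 21 passed the fold. HMGCS1, the entry enzyme, ranged from 0 to 13.3 UMIs per 10000 with a median of 1.65, and 80 other nuclei exceeded that median. It was at 278 CPM against 71.0 CPM, a ratio of 3.91 (3.41 to 4.50). PMVK had a ratio of 4.31 (2.60 to 7.37) and the sterol sensor INSIG1 one of 3.09 (2.42 to 3.96). SREBF2, a regulator of sterol genes, had a ratio of 1.96 (1.75 to 2.20).

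Fatty acid genes split. Of 30 measured genes 10 were at least 2-fold higher and 8 lower, with a median of 0.64. The acyl-CoA synthetases ACSL4 and ACSL6 had ratios of 6.16 (5.15 to 7.40) and 5.86 (5.00 to 6.90). The desaturases SCD and FADS1 had ratios of 5.06 (3.90 to 6.61) and 4.52 (3.36 to 6.13), whereas SCD5 had 4 UMIs against 199 and was 26.6-fold lower (10.2 to 98.6). Without the deepest barcode SCD was at 3.71. PLIN2, which coats lipid droplets, was 4.11-fold (2.54 to 7.02) and CPT1A, which admits fatty acids to mitochondria, 2.48-fold lower (1.87 to 3.33).

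**Figure D4:**
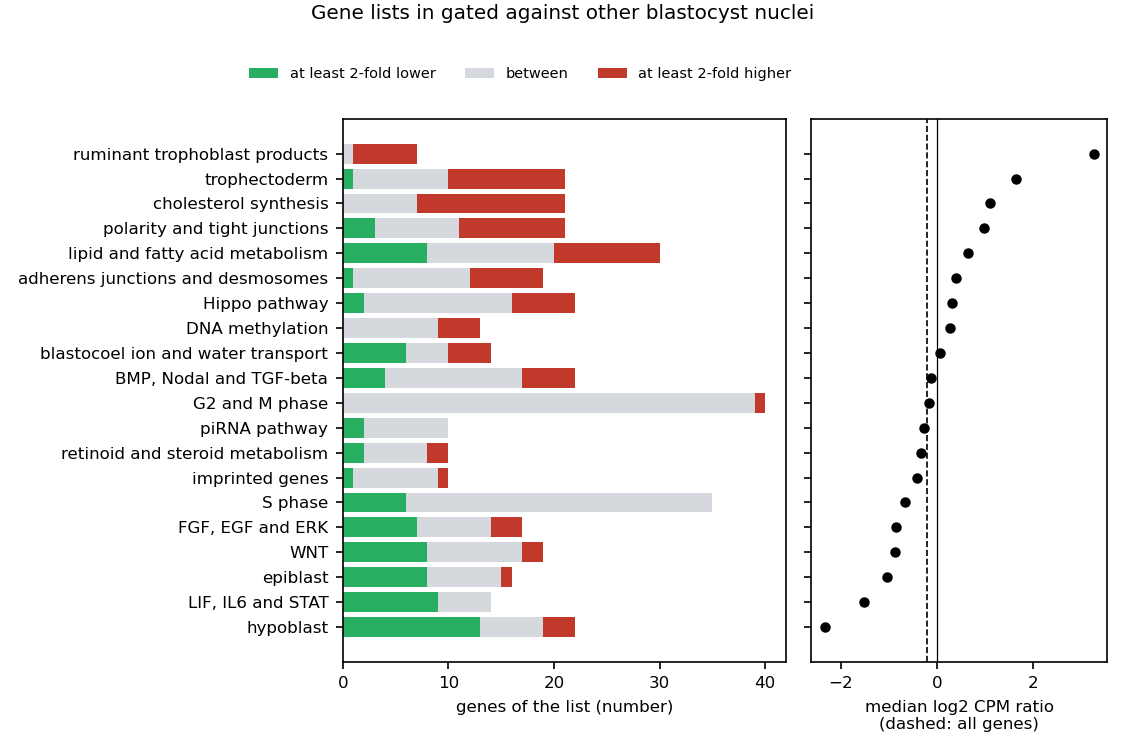
Left, for each list, the number of measured genes at least 2-fold lower (green), between (grey) and at least 2-fold higher (red) in CPM in gated than in other blastocyst nuclei; right, the median log2 ratio of the list, with the median of all 11020 genes dashed at -0.20. Ruminant trophoblast products (6 of 7) and cholesterol synthesis (14 of 21) have no gene at least 2-fold lower, and LIF, IL6 and STAT genes (9 of 14 lower) none at least 2-fold higher. Of all 11020 genes 10.9% were higher and 15.7% lower.

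Cytokine signalling genes were low. Of 14 measured genes of the LIF, IL6 and STAT list 0 were at least 2-fold higher and 9 lower, with a median log2 ratio of -1.52. STAT3, the factor that LIF and IL6 activate, ranged from 0 to 6.37 UMIs per 10000 in gated nuclei with a median of 0, against medians of 3.82 on the epiblast side, 4.19 on the hypoblast side and 1.61 in the remainder. It was at 24.2 CPM (18.3 to 31.5) against 445 CPM, 18.4-fold lower (14.1 to 24.4). Thinned to 4000 UMIs, 7.73% of gated and 72.6% of hypoblast-side nuclei had a STAT3 UMI. The shared receptor IL6ST, or gp130, was 7.87-fold lower (6.88 to 9.05) and IL6R 5.67-fold (3.89 to 8.54). SOCS3, a target and brake of STAT3, had 3 UMIs against 54, 9.62-fold lower (3.12 to 48.1). The ligand IL6, under the minimum of 50 UMIs and so not among the 14, had 33 UMIs against 10.

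The FGF and ERK pathway assigns epiblast and hypoblast fates. Of 17 measured genes 7 were at least 2-fold lower and 3 higher, with a median of -0.85. The receptors FGFR4 and FGFR2 were 5.73-fold (4.10 to 8.21) and 2.64-fold (2.01 to 3.52) lower. The feedback inhibitor SPRY2 had 10 UMIs against 513, 27.4-fold lower (14.8 to 57.5), and SPRY4 was 8.55-fold lower (4.38 to 19.1). SPRED1, another inhibitor, went the other way at a ratio of 2.78 (2.51 to 3.09), as did the receptor ERBB3 at 2.98 (2.10 to 4.27). EGFR was at 728 CPM against 426 CPM, a ratio of 1.71 (1.60 to 1.83).

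Of the WNT list 8 of 19 measured genes were at least 2-fold lower and 2 higher, with a median of -0.88. TCF7L2, a nuclear effector, was 3.57-fold (3.12 to 4.11) and the receptor FZD3 6.14-fold (4.20 to 9.31) lower, and the ligand WNT6 had a ratio of 3.21 (2.26 to 4.59). Of 22 BMP, Nodal and TGF-beta genes 5 were higher and 4 lower, beside 10.9% and 15.7% of all genes. Their median of -0.12 lay above that of all genes, at 0.08 relative to it. The 2 inhibitory SMADs differed in direction. SMAD6 had 21 UMIs against 714 and was 18.2-fold lower (11.8 to 29.6), and SMAD7 had a ratio of 3.36 (2.73 to 4.15).

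S phase genes copy the genome. Of 35 measured genes 6 were at least 2-fold lower, near the 15.7% of all genes, and 0 higher, with a median of -0.66, or -0.46 relative to all genes. GINS2, a subunit of the replicative helicase complex, was 3.16-fold lower (2.46 to 4.10). The summed S phase list took 23.1 UMIs per 10000 in the median gated nucleus (4.07 to 49.1) and 31.0 in the median other nucleus (6.22 to 97.2), so the groups overlapped broadly. Of 40 G2 and M phase genes 1 was higher, ANLN of the cleavage furrow at a ratio of 2.68 (2.40 to 3.00), and 0 were lower. The median of -0.16 was 0.04 relative to all genes. Within the gated nuclei the G2 and M list moved with depth, from 2589 CPM in the 74 shallowest to 3056 CPM in the next 73 and 4110 CPM in the 73 deepest. The part of depth in this was not tested.

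The next 3 lists are read beside the 10.9% higher and 15.7% lower of all genes. Of 10 imprinted genes 1 was at least 2-fold higher, RTL1 with 49 UMIs against 19, and 1, NNAT, lower. Of 10 retinoid and steroid metabolism genes 2 were higher and 2 lower, led by the retinoic acid enzyme ALDH1A3 with 66 UMIs against 5, a ratio of 24.7 (10.1 to 78.5). Of 10 piRNA pathway genes 0 were higher and 2, TDRD1 and TDRKH, lower.

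The gated nuclei varied among themselves. Excess variance, the squared coefficient of variation beyond counting noise and depth, was computed for genes with at least 200 UMIs in the gated nuclei. With all 220 nuclei 386 of 2684 such genes had an excess over 1, and the 10 most variable genes with a symbol (6 features without one ranked among them) were RPS28, KRT19, RPL23, RPL9, SLC7A4, RPLP1, RPS4X, RACK1, RPLP2 and RPL32. Of these 8 code for ribosomal proteins or, in RACK1, a ribosome scaffold, and the highest nucleus held between 35.0% (RPL32) and 43.9% (RPS28) of the UMIs of each of the 10. Without it, an alternative chosen after the data were seen, the 10 most variable with a symbol (3 features without one ranked among them) were GPC5 with an excess of 9.55, TANC2 with 7.28, AKAP12 with 7.22, GALNT17 with 6.33, AK4 with 5.19, P4HA1 with 4.63, MCC with 4.57, ANKH with 4.28, ZNF704 with 4.19 and PDK1 with 4.09. The median over 2582 genes was 0.296, and 229 had an excess over 1. Without that nucleus the summed ratios to other nuclei went from 1.19 to 0.69 for RPS28, from 1.35 to 0.84 for RPL23, from 1.91 to 1.20 for RPL9, from 1.297 to 0.86 for RPLP1, from 1.24 to 0.83 for RPLP2 and from 1.41 to 0.95 for RPL32. They went from 1.76 to 1.17 for RPS4X, from 1.54 to 1.03 for RACK1 and from 2.28 to 1.45 for SLC7A4.

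Several of these genes were more abundant outside the gate. TANC2, a synaptic scaffold gene, was at 148 CPM in the 219 gated nuclei and 1978 CPM in the others, 85 of the 219 had a UMI, and the top 22 nuclei held 72.4% of its UMIs. AKAP12, a kinase anchor, was at 184 CPM and 1195 CPM. The 28 gated nuclei of the 219 with an HNF4A or PDGFRA UMI held 14.3% of all UMIs but 44.2% of those of TANC2, 38.7% of AKAP12, 38.7% of ZNF704, 35.1% of MCC, 34.4% of GPC5, 32.1% of AK4 and 27.7% of PDK1. The part of these 28 nuclei in the variation was not tested. ANKH and GALNT17 were more abundant inside the gate. ANKH, a transporter of pyrophosphate, was at 317 CPM against 23.4 CPM, a ratio of 13.6, with a UMI in 154 of 219 nuclei and 75.7 UMIs per 10000 in the highest. GALNT17 had a ratio of 3.39, with UMIs in 76 nuclei, and its share in the 28 nuclei, 15.4%, was close to their share of all UMIs. AK4, P4HA1 and PDK1 are known targets of hypoxia signalling, and AK4 was less abundant in the 219 gated nuclei, at 113 CPM against 290 CPM, whereas P4HA1 was at 163 CPM against 106 CPM and PDK1 at 125 CPM against 41.6 CPM. Among the pairs of these 10 genes the largest Pearson correlation across the 219 nuclei was 0.47, for TANC2 and MCC. TANC2 and ZNF704 had one of 0.33. AK4 had one of 0.35 with TANC2, 0.30 with P4HA1, 0.27 with ZNF704, 0.21 with AKAP12, 0.19 with PDK1 and -0.19 with ANKH, and P4HA1 and PDK1 had one of 0.19. These values are descriptions over nuclei of 1 library.

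The same gate in the blastoid library gave 156 nuclei with 2709971 UMIs and a median of 15377.5 UMIs. Ribosomal protein genes took 2.53% of UMIs in their median nucleus, against 0.753% in the gated blastocyst nuclei, so depth and RNA content differed between the libraries along with their source, and these cannot be told apart. Of 10233 genes 1082 (10.6%) were at least 2-fold higher in the blastocyst nuclei and 1697 (16.6%) at least 2-fold lower, with a median log2 ratio of -0.09. Of the 22 measured trophectoderm markers 3 were higher, 3 lower and 16 between, with a median of 0.08. GRHL1 had a ratio of 0.90 (0.83 to 0.98), LRP2 0.92 (0.89 to 0.95), DAB2 0.92 (0.86 to 0.98) and PTGS2 1.06 (0.98 to 1.15). Each of these 4 ratios lay within 0.83 and 1.15 with its interval. KRT18 had a ratio of 0.98 (0.93 to 1.03), which was 0.71 (0.67 to 0.75) without the deepest blastocyst barcode, and KRT8 one of 1.15, or 0.86 without it. KRT19 had a ratio of 0.68, which was 0.43 (0.37 to 0.49) and so past the fold without it. The marker counts above include this barcode, and KRT19 lay between only with it. The part of depth in these ratios was not tested.

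Other trophectoderm and trophoblast genes differed between the libraries. ESRRB was 3.45-fold (2.90 to 4.12), KLF5 2.51-fold (2.27 to 2.78) and GRHL2 2.31-fold (1.99 to 2.69) higher in the blastocyst nuclei. TFAP2A was 2.26-fold lower (1.69 to 3.05) and ASCL2, with 8 UMIs against 72, 7.68-fold lower (3.69 to 18.5). ELF5, under the minimum of 50 UMIs and so not counted in the list, had 4 UMIs against 42. Of 9 measured ruminant trophoblast products 2 were at least 2-fold higher in the blastocyst nuclei and 4 lower, with a median of -0.43. HSD3B1 was at 313 CPM against 62.4 CPM, a ratio of 5.02 (4.24 to 5.97), and CYP11A1 had a ratio of 6.84 (3.68 to 13.9). Of 13 retinoid and steroid metabolism genes 2 were higher and 5 lower, with a median of -0.47. Among secreted products IFNT3 was 4.11-fold lower (3.01 to 5.71). CGA had 0 UMIs against 193 and TKDP4 0 against 62. On a floor of 3 counts over the gated blastocyst nuclei they were 54.9-fold and 17.6-fold lower. These folds depend on the floor and are not lower limits.

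**Figure D5:**
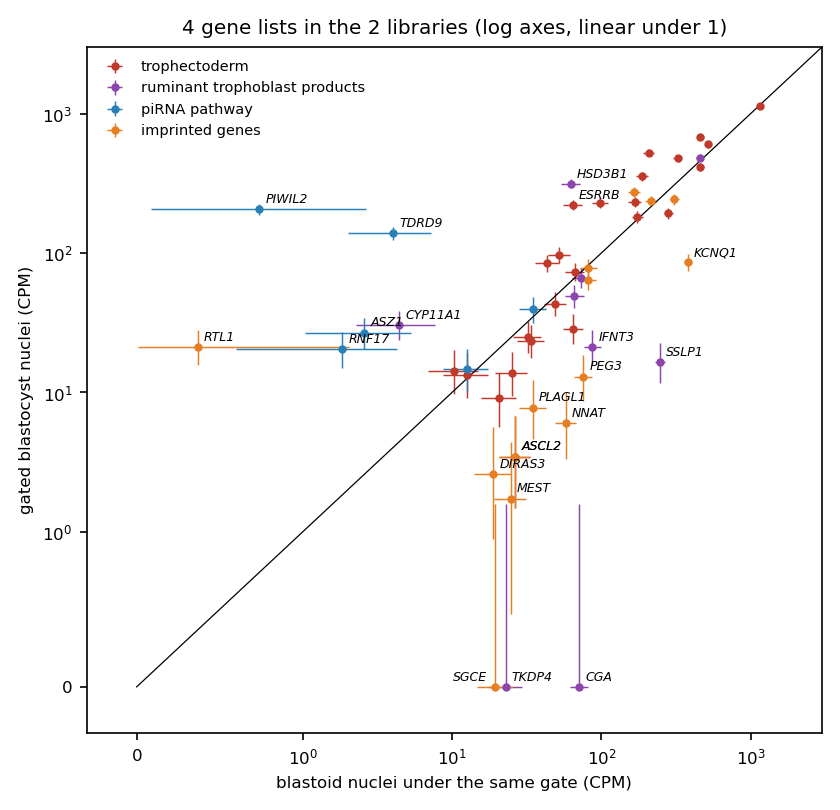
CPM of summed UMIs in gated blastocyst nuclei (y axis) against blastoid nuclei under the same gate (x axis), both on log scales that are linear under 1, with exact Poisson 95% intervals, for measured genes of 4 lists; the line marks equal CPM and names mark genes past 3-fold. Of the trophectoderm markers 16 of 22 lie within 2-fold of the line, KRT19 among them only with the deepest barcode. PIWIL2 and TDRD9 lie far above the line, and CGA and TKDP4 at 0 in the blastocyst nuclei.

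By the rule of size, with sums under 3 UMIs set to 3, the 5 genes highest in the blastocyst nuclei were FAM151A, PIWIL2, ACOT11, PECAM1 and ATP6V1B1. FAM151A was at 414 CPM against 2.21 CPM (ratio 187, 85.6 to 511, or 141 without the deepest barcode). ATP6V1B1, a proton pump subunit, had 154 UMIs against 0 and was 60.2-fold higher on that floor. ACOT11, an acyl-CoA thioesterase, had a ratio of 94.6 (58.9 to 163). PIWIL2, a piRNA-binding protein of the germ line, had 477 UMIs in the gated blastocyst nuclei and 2 in the blastoid nuclei, and PECAM1 201 and 1. Their ratios without that floor, 279.6 and 236, were above that of FAM151A. TDRD9, of the same pathway as PIWIL2, had 320 and 11. Of 6 measured piRNA genes 4 were higher and 0 lower, with a median of 3.42. Within the blastocyst, the ratios of PIWIL2 and TDRD9 in gated to other nuclei were 1.38 and 0.99. The 5 lowest were ZEB2, SULT1E1, PAX3, GDA and RADX. ZEB2, a repressor of epithelial genes, had 1 UMI against 731, and GDA, guanine deaminase, 15 against 1904, 108-fold lower (65.5 to 194). Of 14 imprinted genes 8 were lower and 1, RTL1, higher in the blastocyst nuclei, with a median of -2.15, and KCNQ1 and PEG3 had ratios of 0.23 and 0.17.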

How the data were processed

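Nuclei of day 8 bovine blastocysts and of blastoids were profiled in 1 droplet library each, with the Chromium Next GEM 3′ kit v3.1 per the labels' protocols. The deposited values were UMI counts per gene and barcode, written by Cell Ranger 7.2.0 per the file headers. Cell Ranger 7.1.0 and Seurat 4.3.0 are named per the submitters' processing notes. The genome build, the annotation and the cell calling are not given in the sources used here. Of 35643 features 16116 carry no gene symbol. Lists were matched by symbol, and genes without a match, such as PPARG and POU5F1, were not analysed here. The values of some list genes and of 1 of the 10 lowest genes are not reported here.

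From the counts, UMIs were summed over the nuclei of each group and divided by their total (CPM). Genes with at least 50 UMIs in both sums together were counted as measured, sums under 3 counts were set to a floor of 3 and a gene was called at 2-fold. With 1 library per group no test was run, and intervals (95%, exact Poisson, conditional and Clopper-Pearson) cover counting error only. UMIs of a droplet library are not independent of its embryos, so these intervals do not measure the spread between embryos. For detection shares given as thinned, every nucleus was first downsampled to 4000 UMIs. Other counts and shares of nuclei with a UMI are unthinned. Doublets were not removed. Ambient RNA was not corrected.

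Genes were named by membership of a list, or as the 15 highest and 10 lowest against other nuclei and the 5 highest and 5 lowest against the blastoid nuclei (at least 100 UMIs in both sums and 50 CPM in the higher), or as the 10 with the largest excess variance (at least 200 UMIs), all among features with a gene symbol. The gate, the gene lists and the markers were chosen with earlier results of these data known. PLS1 is named beside the gate although no list or rank holds it, and was chosen after its values were seen. Alternatives for the gate, filters, scaling, UMI minimum, comparison nuclei and doublets (highest Scrublet scores, which took out 4 barcodes and 0 gated nuclei) were computed. The calculations used Python 3.11.15, numpy 2.4.6, scipy 1.17.1, scanpy 1.11.5 and matplotlib 3.10.9 and were tested on simulated data.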

Additional observations from a re-analysis of the deposited data

Results flagged for a closer look

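Barcodes under the filters were not used in any comparison. Of the 251 blastocyst barcodes with too few UMIs, too few genes or too many mitochondrial UMIs, 17 met the GATA2 and GATA3 gate, or 6.77%, against 31.7% of barcodes past the filters. They are given because the gate genes were seen in barcodes outside every comparison. Their median depth was 2295 UMIs. In genes the gate does not read, these 17 had GRHL1 at 307 CPM (exact Poisson 95% interval 159 to 537), LRP2 at 1485 CPM (1128 to 1920) and NID1 at 25.6 CPM (1 UMI). The other 234 had GRHL1 at 78.9 CPM (52.4 to 114), LRP2 at 338 CPM (280.3 to 404) and NID1 at 200.02 CPM (156 to 252), at a median of 1081.5 UMIs. How often stray GATA2 or GATA3 UMIs alone would meet the gate at this depth was not tested.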

How the results depend on the processing

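The gated share of 31.7% was 26.1% with a gate minimum of 4 UMIs, 27.6% when no HNF4A or PDGFRA UMI was allowed and 24.8% when each nucleus was thinned to 4000 UMIs before gating. With at least 200 UMIs a gene, 660 genes were higher and 811 lower than in other nuclei, and 533 higher and 670 lower than in the blastoid nuclei, since fewer genes were tested. With at least 10 UMIs, 2011 were higher and 2986 lower than in other nuclei. The other 41 of these counts and shares over all genes or nuclei stayed within 1.5 times or the binomial interval, and of the recomputed counts of list genes 679 did and 41 did not. Without the deepest barcode, an alternative chosen after the data were seen, 1184 genes were higher and 1696 lower. Of the recomputed ratios of named genes, 4866 moved little, 475 moved beyond their counting interval and of those past 2-fold 2 crossed a ratio of 1: CLDN6 to 0.82 and SLC7A4 to 0.96, both under the thinned gate, where the cause was not tested. Ratios under 2-fold crossed 1 in 167 recomputations, 12 of them without the deepest barcode (AQP3 and RPS28 among them). No paired analysis was possible because each group has 1 library. Depth limits the sparse factors, and 1 library per group leaves every difference without a replicate.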

Other observations

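Levels were also taken by depth within the gated nuclei. In the 74 shallowest, the next 73 and the 73 deepest nuclei, GATA2 was at 608, 511 and 415 CPM, whereas GRHL1 was at 413, 426 and 409.9 CPM. KRT8 was at 466, 480 and 716 CPM, but the deepest 73 hold the barcode of 80592 UMIs, and without it KRT8 was at 421 CPM in the other 72, with GATA2 at 436 CPM and GRHL1 at 428 CPM. The part of the gate's UMI minimum in this was not tested.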
